A study of Mus musculus with 18 samples.

Results

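The chains of the interferon gamma receptor, Ifngr1 and Ifngr2, were examined together with the chains of the type I interferon receptor, Ifnar1 and Ifnar2, and the receptor-associated kinase gene Jak2. These 5 genes were taken by symbol from a table of 46983 genes. The set was selected on earlier measured differences of these genes between memory and naive cells, which ran in opposite directions for Ifngr1 and Ifngr2, so memory against naive values are given as a description, with no test. All 5 genes passed a filter that kept genes reaching 10 normalized counts in 4 or more libraries. Ifngr2 passed it through its naive libraries alone.

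RNA was sequenced from mouse CD8 T cells in 18 libraries. Mice with 2 Hsd alleles of Dock2 (Dock2-Hsd/Hsd, also written Dock2-/- in the labels and called Dock2-deficient here) gave 5 memory-phenotype and 5 naive libraries, and wild-type mice gave 4 memory-phenotype and 4 naive libraries. Memory-phenotype cells (called memory cells here) were CD44 high and naive cells CD44 low, with no treatment given in the labels. As strain, C57BL/6J was given throughout, but C57L6NHsd stood in the descriptions of all Dock2-deficient libraries, so substrain and genotype cannot be told apart. Age was not given. Nothing in the labels ties replicates to different mice, and a p-value therefore covers the variation among libraries, part of which may be technical.

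Interferon gamma is a dimer that binds IFNGR1, the ligand-binding chain, which carries the kinase JAK1. IFNGR2 binds the ligand only within the complex and brings in JAK2, and the level of this chain is known to limit the response of T cells. IFNAR1 and IFNAR2 form the separate receptor for interferon alpha and beta, which signals through TYK2 and JAK1.

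In mm10, Ifngr1 (ENSMUSG00000020009) lies on chromosome 10, 19591949 to 19610229. Ifnar2 (ENSMUSG00000022971; 91372783 to 91405589), Ifnar1 (ENSMUSG00000022967; 91485238 to 91507441) and Ifngr2 (ENSMUSG00000022965; 91547072 to 91565623) lie in this order on chromosome 16. Jak2 (ENSMUSG00000024789) lies on chromosome 19, 29251828 to 29313080. All 5 genes are on the plus strand. The promoters of the chains with opposite differences are shown so that their base composition can be read beside the values. They are the 250 bases before the RefSeq start of each gene (build GRCm38.p6, plus strand), at chr10:19591699-19591948 for Ifngr1 and chr16:91546809-91547058 for Ifngr2. Capitals mark matches to the motifs searched for.
Ifngr1: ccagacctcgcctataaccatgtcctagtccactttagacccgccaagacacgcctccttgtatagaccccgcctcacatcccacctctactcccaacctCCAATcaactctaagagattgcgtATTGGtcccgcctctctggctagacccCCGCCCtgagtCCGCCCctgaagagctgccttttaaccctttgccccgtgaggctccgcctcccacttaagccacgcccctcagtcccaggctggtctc
Ifngr2: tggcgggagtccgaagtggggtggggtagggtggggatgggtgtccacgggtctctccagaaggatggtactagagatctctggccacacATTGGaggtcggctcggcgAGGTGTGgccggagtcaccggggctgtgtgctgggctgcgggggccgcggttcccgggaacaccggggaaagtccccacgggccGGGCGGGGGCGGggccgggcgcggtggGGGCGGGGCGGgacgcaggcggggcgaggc
The Ifngr1 promoter held 59.2% G and C with 11 CpG dinucleotides, and the Ifngr2 promoter 74.0% with 25, against a median of 52.4% over 32851 RefSeq promoters of this length. The motifs were the T-box AGGTGTG, the STAT site TTCNNNGAA, the GC box GGGCGG, the CCAAT box CCAAT and the ETS site CCGGAAGT, each on both strands. The capitals in the Ifngr1 promoter are 2 CCAAT boxes, 150 and 126 bases before the start, and 2 GC boxes. Those in the Ifngr2 promoter are 1 CCAAT box (160 bases before the start), 1 T-box match (141 bases before it) and 4 GC boxes, which adjoin or overlap in pairs. Of the 5 promoters, that of Ifngr2 alone matched the T-box letters, which 5.10% of all promoters hold. GC boxes were in 32.7% and CCAAT boxes in 33.8% of promoters. The STAT site (7.02% of promoters) was matched among the 5 genes in the Ifnar2 promoter alone, and the ETS site (2.88%) in the Ifnar1 promoter alone. A match is a description of letters, and binding was not measured.

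Library depth was 2215987 to 8257768 expected reads, of which the ribosomal RNA gene Rn18s-rs5 took 37.0% to 69.4%. Values are expected counts that the authors had scaled between libraries, called normalized counts here. The 6 defining CD8 T-cell markers (Cd8a, Cd8b1, Cd3e, Cd3d, Cd3g and Trac) were present in every group. Dock2 averaged 184 ± 83.4 in Dock2-deficient memory against 537 ± 206 in wild-type memory cells (limma adjusted p = 0.121), and 243 ± 88.5 in Dock2-deficient naive against 388 ± 101 in wild-type naive cells (SD, n = 5 and 4; adjusted p = 0.841). By Xist and Y-linked genes, 4 of the 5 libraries of each Dock2-deficient group read as male and all 8 wild-type libraries as female, so genotype and sex were nearly confounded. Dock2-deficient memory library 5 held the lowest and wild-type memory library 4 the highest share of Rn18s-rs5 (37.0% and 69.4%). Values without this pair are given with the results and under the dependence on processing.

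Ifngr1, the ligand-binding chain, was about 3 times as high in memory as in naive cells of both genotypes. Its normalized count was 438, 536, 603, 523 and 795 in Dock2-deficient memory libraries 1 to 5, and 152, 182, 152, 202 and 189 in Dock2-deficient naive libraries 1 to 5. It was 441, 417, 516 and 406 in wild-type memory libraries 1 to 4, and 146, 161, 164 and 139 in wild-type naive libraries 1 to 4. The lowest memory library of either genotype lay above 2 times the highest naive library, and library 5 was the highest of the Dock2-deficient memory group. The means were 579 ± 134 in Dock2-deficient memory and 175 ± 22.6 in Dock2-deficient naive cells (SD, n = 5 each), a fold of 3.30. They were 445 ± 49.2 in wild-type memory and 152 ± 11.8 in wild-type naive cells (SD, n = 4 each), a fold of 2.92. On the log2(value + 1) scale the memory minus naive difference was 1.70 ± 0.17 (SE) in Dock2-deficient and 1.54 ± 0.19 in wild-type cells. Among the 9437 genes tested, these were the 154th and the 248th highest differences, in a contrast on which the gene had been chosen.

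Ifngr2, the chain that brings in JAK2, was near absent from memory cells and present in every naive library. Its normalized count was 0, 3.70, 0, 0 and 2.65 in Dock2-deficient memory libraries 1 to 5, and 26.7, 27.9, 30.7, 49.7 and 43.8 in Dock2-deficient naive libraries 1 to 5. It was 3.32, 1.28, 1.29 and 0.874 in wild-type memory libraries 1 to 4, and 20.1, 43.4, 47.5 and 37.3 in wild-type naive libraries 1 to 4. No memory library came within 5 times of the lowest naive library. The means were 1.27 ± 1.78 in Dock2-deficient memory and 35.8 ± 10.4 in Dock2-deficient naive cells, and 1.69 ± 1.10 in wild-type memory and 37.1 ± 12.1 in wild-type naive cells (SD, n = 5 or 4).

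These memory values rest on few reads. Over a whole group, Ifngr2 took 6.00 expected reads in Dock2-deficient memory (95% exact Poisson interval 2.20 to 13.1) and 236 in Dock2-deficient naive libraries (207 to 268). It took 8.03 in wild-type memory (3.45 to 15.8) and 127 in wild-type naive libraries (106 to 151). Corrected for depth, these reads put Ifngr2 24.7 times higher in naive than in memory cells of Dock2-deficient mice (95% interval 11.2 to 68.1) and 18.8 times higher in wild-type mice (9.28 to 44.6). These intervals cover counting error only, and PCR copies are not independent molecules. Reads are pooled over libraries, and Ifngr2 was chosen for this difference, so the intervals are no test of it. The memory minus naive difference on the log2 scale was -4.34 ± 0.50 (SE) in Dock2-deficient and -3.83 ± 0.56 in wild-type cells, the 4th and the 7th lowest of 9437 genes. In bulk samples, fewer cells with the transcript and less of it per cell cannot be told apart.

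**Figure D1:**
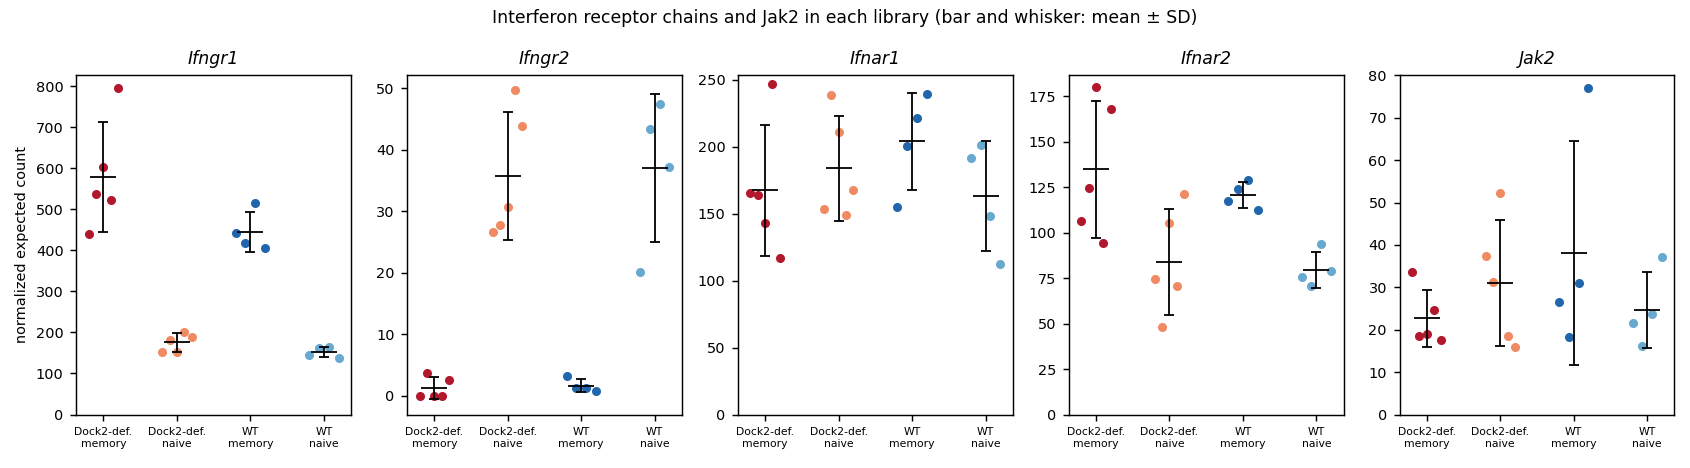
Normalized expected count of each of the 5 genes in every library (vertical axes, on a separate scale for each gene), by group. Points are libraries, and the horizontal bar and whisker are the mean and SD. Ifngr1 lies between 406 and 795 in memory and between 139 and 202 in naive libraries, while Ifngr2 lies between 0 and 3.70 in memory and between 20.1 and 49.7 in naive libraries.

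The chains were also compared within each library, as a ratio with 1 added to each value. Where Ifngr2 was 0, in 3 of 5 Dock2-deficient memory libraries, the ratio is the scaled Ifngr1 value plus 1, so it depends on the scaling and on the number added. The median of (Ifngr1 + 1)/(Ifngr2 + 1) was 439 in Dock2-deficient memory (range 114 to 604) and 4.83 in Dock2-deficient naive libraries (4.005 to 6.34). It was 200 in wild-type memory (102 to 226) and 3.65 in wild-type naive libraries (3.39 to 6.97). Every memory library thus held a ratio over 100, and every naive library one under 7. As log2 values the group means were 8.33 ± 1.01, 2.30 ± 0.27, 7.45 ± 0.53 and 2.07 ± 0.49 in the same order of groups (SD). The memory minus naive difference was 6.03 ± 0.47 (SE) in Dock2-deficient and 5.37 ± 0.36 in wild-type cells.

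Between genotypes the ratio was compared with exact two-sided permutation tests over libraries, 2 in all, whose smallest possible p is 0.0159. In memory cells the log2 ratio was 0.89 ± 0.52 (SE) higher in Dock2-deficient than in wild-type libraries (exact p = 0.127, Benjamini-Hochberg adjusted p = 0.254). This difference was 0.48 with 5 added and 1.23 with 0.5 added to each value (exact p = 0.0952 and 0.175), and 0.63 to 1.26 with 1 library left out. In naive cells it was 0.22 ± 0.27 higher (exact p = 0.413, adjusted p = 0.413). Neither difference passed. Without wild-type naive library 1, whose ratio was the highest of its group, the naive difference was 0.46 (exact p = 0.0357, unadjusted). That is the smallest p possible with the libraries left, and the only 1 under 0.05 among 12 alternatives.

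**Figure D2:**
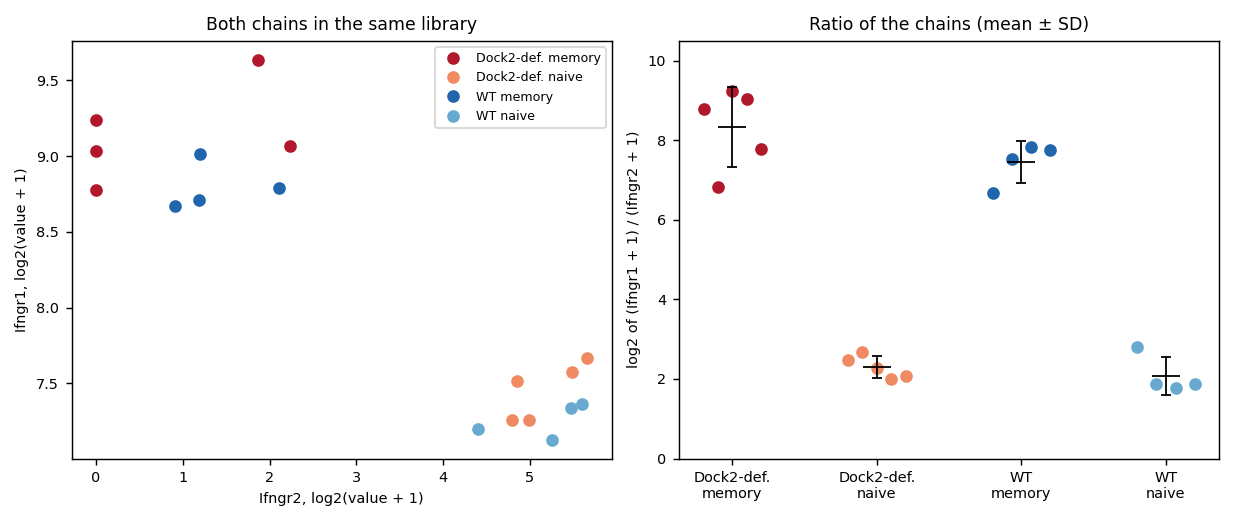
Left, Ifngr1 (vertical axis) against Ifngr2 (horizontal axis) in each library as log2(value + 1), coloured by group; memory libraries lie at the upper left and naive libraries at the lower right. Right, the log2 ratio of the chains per library with the group mean and SD, which averages 8.33 and 2.30 in Dock2-deficient memory and naive and 7.45 and 2.07 in wild-type memory and naive libraries.

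The type I receptor chains did not share this pattern. Ifnar1, the chain that carries TYK2, had normalized counts of 166, 164, 143, 247 and 117 in Dock2-deficient memory and 154, 238, 211, 149 and 168 in Dock2-deficient naive libraries. It had 155, 200, 222 and 239 in wild-type memory and 191, 202, 148 and 112 in wild-type naive libraries. Memory and naive libraries overlapped in both genotypes, and the differences were -0.15 ± 0.22 and 0.34 ± 0.25 on the log2 scale in Dock2-deficient and wild-type cells. Ifnar2, the ligand-binding chain that carries JAK1, had 107, 125, 180, 94.5 and 168 in Dock2-deficient memory and 74.6, 48.2, 105, 70.5 and 121 in Dock2-deficient naive libraries. It had 118, 124, 129 and 113 in wild-type memory and 75.4, 70.5, 93.6 and 79.0 in wild-type naive libraries. The mean was higher in memory cells of both genotypes, by 0.70 ± 0.24 in Dock2-deficient cells, where the groups overlapped, and by 0.60 ± 0.26 in wild-type cells, where they did not. Non-overlap was found for 3.93% of all genes in the Dock2-deficient and 8.27% in the wild-type comparison of memory with naive cells. Ifngr1 and Ifngr2 did not overlap in either, which is a description only, as they were chosen for their memory differences.

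Jak2, the kinase brought in by IFNGR2, had 33.7, 18.5, 18.9, 24.7 and 17.7 in Dock2-deficient memory and 37.3, 31.3, 52.2, 18.4 and 15.9 in Dock2-deficient naive libraries. It had 26.5, 18.3, 30.9 and 76.9 in wild-type memory and 21.5, 16.3, 23.8 and 37.3 in wild-type naive libraries. The groups overlapped, with log2 differences of -0.35 ± 0.38 in Dock2-deficient and 0.46 ± 0.42 in wild-type cells. The highest value, 76.9, came from wild-type memory library 4, the library with the highest share of Rn18s-rs5.

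Per kilobase of the principal transcript, Ifngr1 was the highest of the 5 genes in every group, at 274 ± 63.6 and 83.1 ± 10.7 normalized counts per kilobase in Dock2-deficient memory and naive cells and 211 ± 23.3 and 72.1 ± 5.60 in wild-type memory and naive cells (SD). Ifnar1 and Ifnar2 came next, between 26.1 and 52.2, and the order of this pair in wild-type memory cells changed with the measure of transcript length. In Dock2-deficient memory cells this pair lay within its spread, at 42.8 ± 12.5 for Ifnar1 and 44.3 ± 12.4 for Ifnar2. Ifngr2 was the lowest in memory cells, at 0.343 ± 0.480 in Dock2-deficient and 0.456 ± 0.297 in wild-type libraries, below Jak2. In naive cells the mean of Ifngr2 was above that of Jak2. It was 9.64 ± 2.80 against 6.17 ± 2.94 for Jak2 in Dock2-deficient and 9.996 ± 3.26 against 4.91 ± 1.78 in wild-type cells. The libraries of the 2 genes overlapped in both genotypes. In Dock2-deficient naive cells Ifngr2 was 7.20 in library 1 and Jak2 10.4 in library 3. In wild-type naive cells Ifngr2 was 5.42 in library 1 and Jak2 7.41 in library 4.

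None of the 5 genes passed limma's test for a genotype difference. The test called 0.053% of 9437 genes in memory cells, 0.138% in naive cells, and 0.0318% for the interaction, which is the memory minus naive difference of Dock2-deficient cells less that of wild-type cells. In memory cells, Dock2-deficient libraries differed from wild-type ones by 0.36 for Ifngr1 (95% interval -0.02 to 0.73, adjusted p = 0.319) and by -0.53 for Ifngr2 (-1.63 to 0.58, adjusted p = 0.621). In naive cells the differences were 0.20 for Ifngr1 (adjusted p = 0.976) and -0.03 for Ifngr2 (-1.13 to 1.08, adjusted p = 0.9997). The interval for Ifngr2 is wide, since it spans more than 2-fold in either direction in naive cells. Ifnar1 differed by -0.31 in memory (adjusted p = 0.498) and 0.18 in naive cells (adjusted p = 0.989). Ifnar2 differed by 0.11 and 0.01 (adjusted p = 0.837 and 0.9997), and Jak2 by -0.56 and 0.25 (adjusted p = 0.478 and 0.991), in memory and naive cells. Without wild-type memory library 4 the Jak2 difference in memory cells was -0.16. Without that library and Dock2-deficient memory library 5 it was -0.08, and that of Ifnar1 was -0.11. With a term for sex, Ifngr2 was -1.12 in memory and -0.62 in naive cells (adjusted p = 0.839 and 0.999), and Jak2 was -0.07 and 0.74 (adjusted p = 0.991 and 0.999). Dock2-deficient and wild-type libraries overlapped for all 5 genes in both cell types, where 4.44% of genes in memory and 2.71% in naive cells did not.

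The interaction was 0.16 for Ifngr1 (adjusted p = 0.911) and -0.50 for Ifngr2 (adjusted p = 0.908), and -0.49, 0.10 and -0.81 for Ifnar1, Ifnar2 and Jak2 (adjusted p = 0.819, 0.963 and 0.819). Without the same pair of libraries Ifnar1 was -0.29, Jak2 -0.33 and Ifngr2 -0.91. The sign of the Ifngr1 value depended on scaling: it was -0.13 when libraries were scaled to their totals without Rn18s-rs5 and mitochondrial genes. That scaling moved the median of all genes to -0.26 for the interaction and -0.27 for the genotype difference in memory cells.

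**Figure D3:**
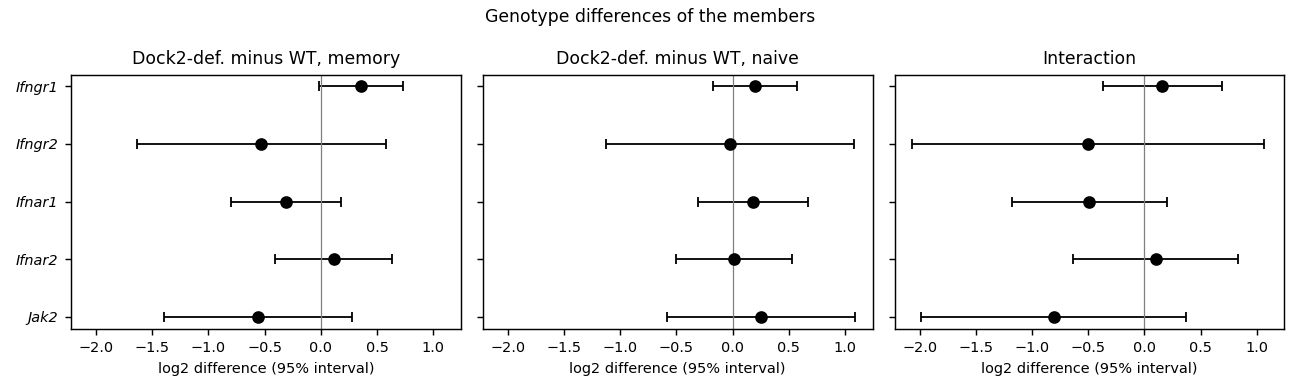
Difference between Dock2-deficient and wild-type cells on the log2(value + 1) scale for the 5 genes in memory cells (left) and naive cells (middle), and the interaction (right), with 95% confidence intervals from limma (horizontal axes). Every interval crosses 0, and that of Ifngr2 is the widest of the 5 in each panel, from -1.63 to 0.58 in memory and from -1.13 to 1.08 in naive cells.

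Of 9 interferon ligand genes, Ifng passed the filter and the other 8 were listed at 0 in all libraries. Memory libraries alone carried Ifng through the filter, so it was tested only through the cells where it was high. This limits its comparisons of memory with naive cells. Ifng, the ligand of this receptor, was 23.1, 30.9, 18.9, 0.851 and 1.77 in Dock2-deficient memory against 0 to 3.07 in Dock2-deficient naive libraries, and the groups overlapped (log2 difference 2.21 ± 0.78, limma adjusted p = 0.176). It was 12.2 to 28.2 in wild-type memory against 0 to 1.40 in wild-type naive libraries (3.53 ± 0.87, adjusted p = 0.028). The wild-type call, in a comparison where 2.52% of genes passed, ended without memory library 1, 2, 3 or 4 or naive library 1 or 2 (adjusted p 0.0550 to 0.0974). The difference between genotypes of this memory effect did not pass (-1.32 ± 1.16, adjusted p = 0.835).

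Among the other listed chains of the same receptor class, the 2 that could be tested were higher in memory cells. Of 7 class II cytokine receptor chains, Il10ra and Il10rb, which form the interleukin 10 receptor, passed the filter, and both were called higher in Dock2-deficient cells, where 2.82% of genes passed, and in wild-type cells. Il10rb was 130, 170, 198, 128 and 226 in Dock2-deficient memory and 76.4, 101, 58.4, 95.02 and 83.6 in Dock2-deficient naive libraries (1.02 ± 0.21, adjusted p = 0.006), with no overlap. The call held whichever library was left out, but not under total scaling to library sums without Rn18s-rs5 and mitochondrial genes (adjusted p = 0.070). In wild-type cells Il10rb was 104 to 130 in memory against 50.6 to 77.7 in naive libraries (0.88 ± 0.23, adjusted p = 0.046), a call that ended without any of the 8 libraries (adjusted p 0.0507 to 0.171). Il10ra was 34.1 to 73.9 in Dock2-deficient memory against 18.4 to 41.4 in Dock2-deficient naive libraries (1.32 ± 0.30, adjusted p = 0.014), and its adjusted p was 0.052 without memory library 3 and 0.078 under total scaling. In wild-type cells it was 30.6 to 61.3 in memory against 13.2 to 27.1 in naive libraries (1.31 ± 0.33, adjusted p = 0.037), and the call ended without memory library 1, 2 or 3 or naive library 1, 3 or 4 (0.0757 to 0.127).

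The 12 kinases and transcription factors of the pathway all passed the filter. Stat4, which transmits interleukin 12 signals, was higher in Dock2-deficient memory cells by 1.02 ± 0.27 (limma adjusted p = 0.048), a call that ended without memory library 1, 2, 3, 4 or 5 or naive library 1, 4 or 5 (0.0682 to 0.145). Jak1, the kinase bound by IFNGR1, averaged 1291 ± 147 in Dock2-deficient memory and 943 ± 142 in Dock2-deficient naive cells (adjusted p = 0.141), and 1227 ± 51.01 in wild-type memory and 923 ± 22.7 in wild-type naive cells (adjusted p = 0.310). The list median was -0.06 in Dock2-deficient and 0.04 in wild-type cells, beside -0.01 and -0.02 over all genes.

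Some targets of interferon gamma were lower in memory than in naive Dock2-deficient cells. Of 20 tested among 23 targets, 3 passed as lower, where 1.05% of all genes did, and none as higher, and the median was -0.64 in Dock2-deficient and -0.23 in wild-type cells, where none passed. Tgtp1, a T-cell GTPase, was 113 to 279 in Dock2-deficient memory against 294 to 579 in Dock2-deficient naive libraries (-1.55 ± 0.28, limma adjusted p = 0.002). Igtp, another immunity-related GTPase, was 119 to 234 against 237 to 354 (-0.92 ± 0.21, adjusted p = 0.012). Both calls held under all 21 alternatives, though near-identical copies in this GTPase family could share reads. Igtp also overlaps the GTPase gene Irgm2 on the plus strand of chromosome 11 in the annotation. Reads could be shared between these genes as well, which was not tested. Gbp2, a guanylate-binding protein, was 37.3 to 78.7 against 108 to 184 (-1.19 ± 0.31, adjusted p = 0.045), and its call ended without memory library 1, 2, 3 or 5 or naive library 1, 2, 4 or 5 (0.0555 to 0.115). In wild-type cells Tgtp1 was 81.9 to 210 in memory against 255 to 418 in naive libraries, and its difference of -1.15 ± 0.31 did not pass (adjusted p = 0.055).

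Igtp, which overlaps Irgm2, was also higher in Dock2-deficient than in wild-type naive cells. Its values were 237 to 354 against 97.2 to 170 (1.16 ± 0.22, limma adjusted p = 0.028). The call ended without Dock2-deficient naive library 2, 3, 4 or 5 or wild-type naive library 2, 3 or 4 (0.0652 to 0.127), with a term for sex (adjusted p = 0.999), under total scaling (0.078), in a fit of the naive groups alone (0.063) and without the filter (0.052). No gene of any of these lists was called for a genotype difference in memory cells, where 1546 genes had an unadjusted p under 0.05, or for the interaction, where 492 did.

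Of 14 negative regulators 12 were tested, and Ptpn2, a phosphatase that acts on JAK1, passed as higher in Dock2-deficient memory cells (0.98 ± 0.26, limma adjusted p = 0.047). This call ended without memory library 2, 3, 4 or 5 or naive library 1, 2 or 3 (0.0575 to 0.145). Of 15 other receptors that signal through JAK2, 5 were tested. The interleukin 12 receptor chain Il12rb2 passed in Dock2-deficient cells (2.46 ± 0.65, adjusted p = 0.045). That call ended without memory library 1, 2, 4 or 5 or naive library 2, 3 or 4 (0.0505 to 0.118). Il12rb2 also reached 10 normalized counts in memory libraries alone, so it passed the filter only through the cells where it was high. The other chain, Il12rb1, passed in wild-type cells (1.87 ± 0.47, adjusted p = 0.032; ended without memory library 1, 2, 3 or 4 or naive library 1, 3 or 4, 0.0533 to 0.105). Of 13 type I interferon targets 10 were tested and none passed, with medians of 0.20 in Dock2-deficient and 0.47 in wild-type cells. Beside the counts of these 3 lists, 2.82% of all genes tested passed in Dock2-deficient and 2.52% in wild-type cells.

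Ifnar2, Il10rb, Ifnar1, Ifngr2 and Tmem50b follow each other on chromosome 16. Ifngr2 had the lowest memory minus naive difference among the tested genes there, and its next neighbour Tmem50b was also lower in memory cells of Dock2-deficient mice. Counted from the start of Ifnar2, Ifngr2 ends at 193 kb and Tmem50b, a membrane protein gene on the minus strand, spans 202 to 225 kb. Tmem50b was 44.4, 42.0, 27.5, 42.6 and 47.8 in Dock2-deficient memory and 78.2, 152, 175, 77.0 and 101 in Dock2-deficient naive libraries (-1.43 ± 0.28, limma adjusted p = 0.003), a call that held under all 21 alternatives. In wild-type cells it was 29.6 to 56.8 in memory against 44.7 to 97.1 in naive libraries and did not pass (-0.87 ± 0.31, adjusted p = 0.190). The library method, Smartseq2, does not mark strand, but these genes do not overlap in the annotation. Of 8 tested among 12 neighbours, Il10rb, already reported among the class II chains, was called higher in both genotypes. Tmem50b was called lower in Dock2-deficient cells. The list medians were -0.27 in Dock2-deficient and -0.03 in wild-type cells. Over all genes tested, 2.82% were called in either direction in Dock2-deficient and 2.52% in wild-type cells.

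**Figure D4:**
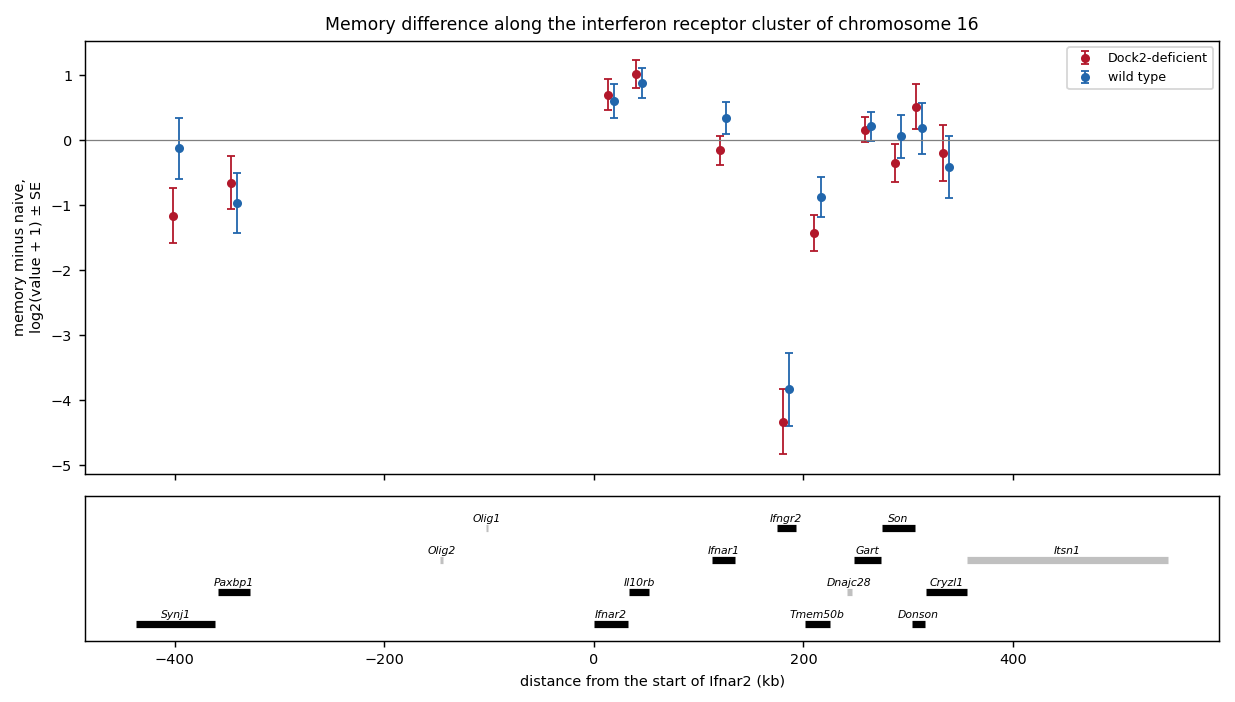
Top, memory minus naive difference on the log2(value + 1) scale with SE for the tested genes around the receptor cluster on chromosome 16, against distance from the start of Ifnar2 in kilobases. Bottom, the extent of each gene, in grey where it was not tested. Ifngr2 is the lowest, at -4.34 in Dock2-deficient and -3.83 in wild-type cells, while Il10rb lies at 1.02 and 0.88.

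Across the 18 libraries, log2 values of Ifngr1 and Ifngr2 had a Pearson r of -0.893, and Ifngr1 and Ifnar2 one of 0.751. These are descriptions of libraries that fall into memory and naive groups, and no p is given. The genes most like Ifngr2 were Igfbp4 (r = 0.948), which encodes a binding protein of insulin-like growth factors, Dapl1 (0.939), the receptor gene Acvrl1 (0.939), Igflr1 (0.936) and Rgcc (0.930). The most opposite were the pseudogene Klra13-ps (-0.955), Il2rb (-0.951), which encodes a chain of the receptors for interleukins 2 and 15, Samd3 (-0.947), Ctla2a (-0.940) and Dmrta1 (-0.937). Those most like Ifngr1 were Itm2a (0.988), Klra3 (0.977), Ctla2a (0.975), Ly6c2 (0.975) and the granzyme gene Gzmm (0.971). Klra, Ctla2 and Ly6c genes have near-identical copies, so their values are uncertain.

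Markers of other cells were compared because B and myeloid cells also express these receptors. The summed value of 6 B-cell markers was 31.0 to 46.9 in Dock2-deficient memory and 26.1 to 64.6 in Dock2-deficient naive libraries, and 46.3 to 70.9 in wild-type memory and 38.0 to 57.5 in wild-type naive libraries. Only 2 of the 6 B-cell markers were tested, and neither was called. Their median memory minus naive difference was 0.94 in Dock2-deficient and 1.26 in wild-type cells. The summed value of 10 myeloid and dendritic markers was 21.3 to 71.7 in Dock2-deficient memory and 6.57 to 40.8 in Dock2-deficient naive libraries, and 35.4 to 58.1 in wild-type memory and 6.84 to 31.0 in wild-type naive libraries. Of these 10 markers 2 were tested, and Fcer1g, which natural killer cells also express, was the 1 called, as higher in memory cells of both genotypes. The summed value of 5 natural killer markers was 19.5 to 55.3 in Dock2-deficient memory and 0 to 6.11 in Dock2-deficient naive libraries, and 48.1 to 76.9 in wild-type memory and 0 in all wild-type naive libraries. Klre1, the 1 of them tested, was called higher in memory cells of both genotypes, and it passed the filter through memory libraries alone. Of all genes, 2.82% were called in either direction in Dock2-deficient and 2.52% in wild-type cells. The 4 CD4 and regulatory T-cell markers summed to at most 28.0, and 3 erythroid markers to at most 165, in a Dock2-deficient naive library. The part of these markers in the receptor values was not tested.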

How the data were processed

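Per the labels' protocols, the RNA came from a Qiagen RNAeasy extraction, and Smartseq2, a full-length cDNA method, gave the libraries. Genome build mm10 and the tools bcl2fastq, FastQC and RSEM are named in the submitters' processing notes. The sources used here give no versions, alignment settings or annotation. The deposited values are a normalized signal: RSEM expected counts that the authors had scaled between libraries. Depth was read back from the step of 0.01 reads in each library, and 59.5% to 69.3% of values above 0 came out whole within 0.005. RSEM shares reads between near-identical genes by estimate. Each of the 18 columns matched 1 library's description, and the titles gave groups.

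Tests were made with limma 3.58.1 (R 4.3.3) on log2(value + 1), with 1 mean per group over all 18 libraries, for 9437 genes with at least 10 in at least 4 libraries. Fold changes on this scale understate the change of low genes. Variances were moderated along a trend (14 residual and 6.43 prior degrees of freedom), and p-values are two-sided and Benjamini-Hochberg adjusted over all genes tested, with a threshold of 0.05. The fit was tested on simulated data. Exact permutation tests and Poisson intervals used scipy 1.17.1. Gene positions and lengths came from GENCODE M21 on mm10, which held 46488 of the identifiers (98.9%), and promoters from RefSeq, in which all 5 genes matched.

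Members, gene lists and alternatives were chosen with earlier results of these data known. The genes named are the 5 members, the called genes of the lists up to 4 per list, and the 5 genes most like Ifngr2 and Ifngr1 and most opposite to Ifngr2. Jak1, Ifng in Dock2-deficient cells and Dock2 are named beside them. Some listed genes are not reported here.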

Additional observations from a re-analysis of the deposited data

Results flagged for a closer look

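Of 24 gene and group combinations tested for a sample far from the others, 2 stood out, where chance gives about 1 in 20. Ifngr2 was 3.32 in wild-type memory library 1, and the gap to the next library took 0.830 of the group's range, beside a critical value of 0.829. This value rests on 4 expected reads. The log2 ratio of Ifngr1 to Ifngr2 was 2.80 in wild-type naive library 1, with a gap of 0.896 of the range, and Ifngr2 was the lowest of its group there.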

How the results depend on the processing

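Over 600 alternative values of the 5 genes and the ratio, 572 kept direction and, where a test applied, side of the threshold. Values given without a test were counted as kept if they moved by less than the SD within groups. The memory minus naive differences of Ifngr1 and Ifngr2 kept their direction under every alternative run. With a pseudocount of 5, Ifngr2 was -2.71 in Dock2-deficient and -2.61 in wild-type cells, and the log2 ratio 4.38 and 4.13. Under total scaling Ifngr1 was 1.38 in Dock2-deficient cells, where that scaling moved the median of all genes to -0.32. A filter of 50 left out Ifngr2 and Jak2, so it gives no value for them.

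Small differences changed sign, and none of them passed. Total scaling gave -0.18 for Ifnar2 between genotypes in memory cells, and -0.13 for Ifngr1 and -0.18 for Ifnar2 in the interaction. Without Dock2-deficient memory library 5 and wild-type memory library 4 these were -0.0088, -0.0027 and -0.021. A term for sex gave -0.088 for Ifngr1 and -0.18 for Ifnar2 in naive cells and -0.082 for Ifnar2 in memory cells, and array weights -0.0097 for Ifnar2 in the interaction. Leaving out 1 library gave -0.29 to 0.11 for Ifngr2 and -0.14 to 0.19 for Ifnar2 in naive cells, -0.0019 to 0.23 for Ifnar2 in memory cells, and -0.078 to 0.25 for its interaction. The ratio difference between genotypes in naive cells was 0.12 to 0.46 with 1 library left out. The causes were not tested.

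Genes called between genotypes in memory cells numbered 5, against 12 with a pseudocount of 5, 10 without a filter, 2 with a filter of 50, 3 in a fit of those groups alone, 0 with a sex term and 40 with array weights (3 to 12 with 1 library left out). In naive cells there were 13, against 8 in a fit of those groups and 3 with a sex term (9 to 19). The interaction had 3, against 0 without a filter, 1 with a filter of 50, 0 without the 2 libraries, 5 with array weights and 0 with the replicate block (0 to 2). Memory cells had 266 in Dock2-deficient mice (450 with array weights, 200 to 314) and 238 in wild-type mice (140 with a filter of 50, 377 with array weights, 185 to 211).

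Libraries with the same replicate number did not deviate together (r from -0.25 to 0.30, 3 of 9 pairs above 0.1, and 3 of 9 best with their own number). In both Dock2-deficient groups, however, library 1 read as female and libraries 2 to 5 as male. The labels do not say whether memory and naive libraries of the same number came from the same mouse. With the replicate block, no call of the 5 genes changed, and the interaction of the ratio was 0.66 (exact permutation p = 0.381). The block ended the calls of Gbp2, Il12rb2, Ptpn2 and Stat4 in Dock2-deficient cells (adjusted p 0.080 to 0.088) and of Il10ra, Il10rb and Il12rb1 in wild-type cells (0.066 to 0.125).

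Of 342 alternative values of the called list genes, 120 lost the call. Without Dock2-deficient memory library 5 and wild-type memory library 4, calls ended for Il12rb2, Ptpn2 and Stat4 in Dock2-deficient cells (adjusted p = 0.054, 0.089 and 0.058) and for Il10rb in wild-type cells (0.093). Total scaling also ended Il12rb2, Ptpn2 and Stat4 (0.093, 0.170 and 0.285) in Dock2-deficient and Il10rb and Il12rb1 (0.051 and 0.106) in wild-type cells. The few reads of Ifngr2 in memory cells limit any genotype comparison there.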
